A study of Homo sapiens with 16 samples.

Results

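The genes described here are 8 genes best known from white blood cells, platelets and the cells that line vessels, followed in a breast cancer line with and without the clock factor BMAL1. They are *FERMT3*, *LCP1* and *CORO1A*, whose proteins join integrins and actin, *PECAM1*, an adhesion molecule, *CSF1R*, a growth factor receptor, *EBI3*, a cytokine subunit, and *CD68* and *LAPTM5*, which encode lysosomal membrane proteins. The 8 were chosen by name from 60658 genes, with the KO and WT levels given below already known, so those levels and their ratios are a description and carry no test. Each symbol matched 1 gene in each of the 4 deposited tables.

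Transcripts were sequenced from BMAL1 knockout (KO) and wild-type (WT) cells of MDA-MB-231, a human line of triple-negative breast cancer. KO and WT cells were each studied as untreated control, with cisplatin, which crosslinks DNA, with doxorubicin, which poisons topoisomerase, and with tunicamycin, which blocks N-linked glycosylation. Each of the 8 groups had 2 samples, 16 in all, and the authors deposited a single FPKM per group, a level scaled to transcript length and to the sequenced total. Drug doses and exposure times are not known here, and the labels name no clone and no edited part of the gene, so loss of BMAL1 and any difference between the cultures or clones of the 2 genotypes cannot be told apart.

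Blood cells stick and move by integrins, receptors that kindlin and talin switch from a resting to a binding state by gripping the tail of the β chain inside the cell. Plastins and coronins bundle and remodel the actin that these integrins pull on. In bone marrow such genes are switched on by factors of the PU.1 and C/EBP families during myeloid development, and epithelial cells normally make little of most of them. BMAL1 pairs with CLOCK on the E-box CACGTG to drive the circadian clock.

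The promoters are shown because the 8 genes share a setting in blood cells and differ here in how far KO and WT stood apart. RefSeq (GRCh38.p14) had an entry for 7 of the 8 genes, with 9 windows of 250 bases before a transcription start, and *PECAM1* had none. The search covered both strands and 4 motifs. They were CACGTG, the E-box of BMAL1 and CLOCK, then AGGAAGT, a core bound by PU.1 and other ETS factors, then TGANTCA, the core of AP-1, and last TTGCNNAA, a core of C/EBP factors. No match overlapped another in the windows printed. CACGTG was in 0 of the 9 windows, against 6.34% of all 35116 promoters of that length. AGGAAGT was in 5 of the 9 windows, against 7.01% of promoters, TGANTCA in 4 of 9, against 6.57%, and TTGCNNAA in 2 of 9, against 9.05%. The motifs were picked with these genes in view, and a match is a run of letters and not a measured binding site. The windows below run 5′ to 3′ on the strand of the gene, with matches to any of the 4 motifs in capitals, for the genes that held AGGAAGT. They are *FERMT3* at its second start (chr11:64207456-64207705, plus strand), *LCP1* (chr13:46182178-46182427, minus strand), *EBI3* (chr19:4229273-4229522, plus strand), *CD68* (chr17:7579388-7579637, plus strand) and *LAPTM5* (chr1:30757775-30758024, minus strand).
FERMT3: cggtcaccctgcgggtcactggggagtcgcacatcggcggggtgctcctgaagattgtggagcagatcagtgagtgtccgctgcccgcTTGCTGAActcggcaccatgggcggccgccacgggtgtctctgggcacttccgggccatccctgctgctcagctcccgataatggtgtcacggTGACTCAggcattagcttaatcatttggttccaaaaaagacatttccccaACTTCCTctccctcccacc
LCP1: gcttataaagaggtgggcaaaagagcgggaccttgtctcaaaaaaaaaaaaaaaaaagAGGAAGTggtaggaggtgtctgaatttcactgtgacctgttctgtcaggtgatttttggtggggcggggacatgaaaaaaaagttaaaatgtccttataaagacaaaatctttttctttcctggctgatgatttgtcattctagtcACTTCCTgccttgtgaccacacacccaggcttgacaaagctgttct
EBI3: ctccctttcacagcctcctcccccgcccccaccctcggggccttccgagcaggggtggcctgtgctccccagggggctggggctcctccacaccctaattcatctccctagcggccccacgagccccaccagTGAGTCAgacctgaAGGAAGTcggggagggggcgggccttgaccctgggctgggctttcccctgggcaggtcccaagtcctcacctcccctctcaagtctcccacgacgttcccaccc
CD68: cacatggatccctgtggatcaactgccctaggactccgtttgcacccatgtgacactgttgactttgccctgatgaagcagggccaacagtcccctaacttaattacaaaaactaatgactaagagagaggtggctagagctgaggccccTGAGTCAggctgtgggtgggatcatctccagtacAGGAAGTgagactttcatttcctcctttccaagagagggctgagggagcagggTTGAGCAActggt
LAPTM5: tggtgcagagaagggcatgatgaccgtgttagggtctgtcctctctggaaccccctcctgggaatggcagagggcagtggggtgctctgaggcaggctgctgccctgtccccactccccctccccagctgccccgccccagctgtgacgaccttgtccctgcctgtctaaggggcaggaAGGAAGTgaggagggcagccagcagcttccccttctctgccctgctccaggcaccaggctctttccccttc

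The *FERMT3* window held its ETS core 19 bases before the start, read as ACTTCCT on the strand shown, with the AP-1 core at 69 bases and the C/EBP core at 162 bases. In *LCP1* the ETS core came as a pair, at 192 and 46 bases. *CD68* held 3 of the 4 motifs, as *FERMT3* did, and *EBI3* had its ETS and AP-1 cores at 104 and 118 bases. *LAPTM5* held the ETS core alone, at 71 bases. Of the windows not printed, the upstream start of *CSF1R* held TGAGTCA at 34 bases, and the first start of *FERMT3*, the downstream start of *CSF1R* and the *CORO1A* window held none of the 4.

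The knocked-out gene, *ARNTL*, which encodes BMAL1, was lower in KO cells in each table. It stood at 0.889 FPKM in KO control cells against 5.67 FPKM in WT control cells, and the authors' deposited table called that difference (log2 ratio -2.67, Cuffdiff q = 0.000213). Under doxorubicin it was 0.474 FPKM in KO and 1.31 FPKM in WT cells, also called in the authors' deposited table (q = 0.00509). Under cisplatin it was 0.941 FPKM in KO and 1.26 FPKM in WT cells, and under tunicamycin 2.24 FPKM in KO and 3.25 FPKM in WT cells, and neither difference passed in the authors' deposited table (q = 0.467 and 0.0810). The label is thus clearest in control and doxorubicin. Where the edit lies within the gene is not stated, so a transcript level need not show it.

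Of the 8 genes, 7 were higher in KO than in WT cells in all 4 tables, the exception being *LAPTM5*. The 5 genes *FERMT3*, *EBI3*, *LCP1*, *PECAM1* and *CSF1R* had every KO group above every WT group and stood at least 3-fold apart in each table. Of 10881 genes tested in all 4 tables, 4.37% had every KO group above every WT group, and 1.08% were also at least 3-fold higher in KO in each, and nothing is read from this, since these genes were chosen on the same values. The other 3, *CD68*, *CORO1A* and *LAPTM5*, overlapped between genotypes. The authors' deposited tables called 7 genes higher in KO control cells, where 22.7% of all 12978 genes tested rose and 43.8% passed in either direction. They called 7 higher and 1 lower under cisplatin, where the shares of tested genes were 25.4% and 24.2% (49.6% in either direction). They called 8 higher under doxorubicin, where 24.4% rose (45.1% in either direction), and 6 higher and 1 lower under tunicamycin, where the shares were 27.2% and 22.1% (49.3% in either direction). Nothing is read from these counts, since the genes were chosen on this contrast. The median log2 ratio of the 8 genes was 3.27 in control cells, 2.14 with cisplatin, 3.27 with doxorubicin and 3.44 with tunicamycin, beside 0.01, 0.02, 0.04 and 0.03 over all tested genes.

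**Figure D1:**
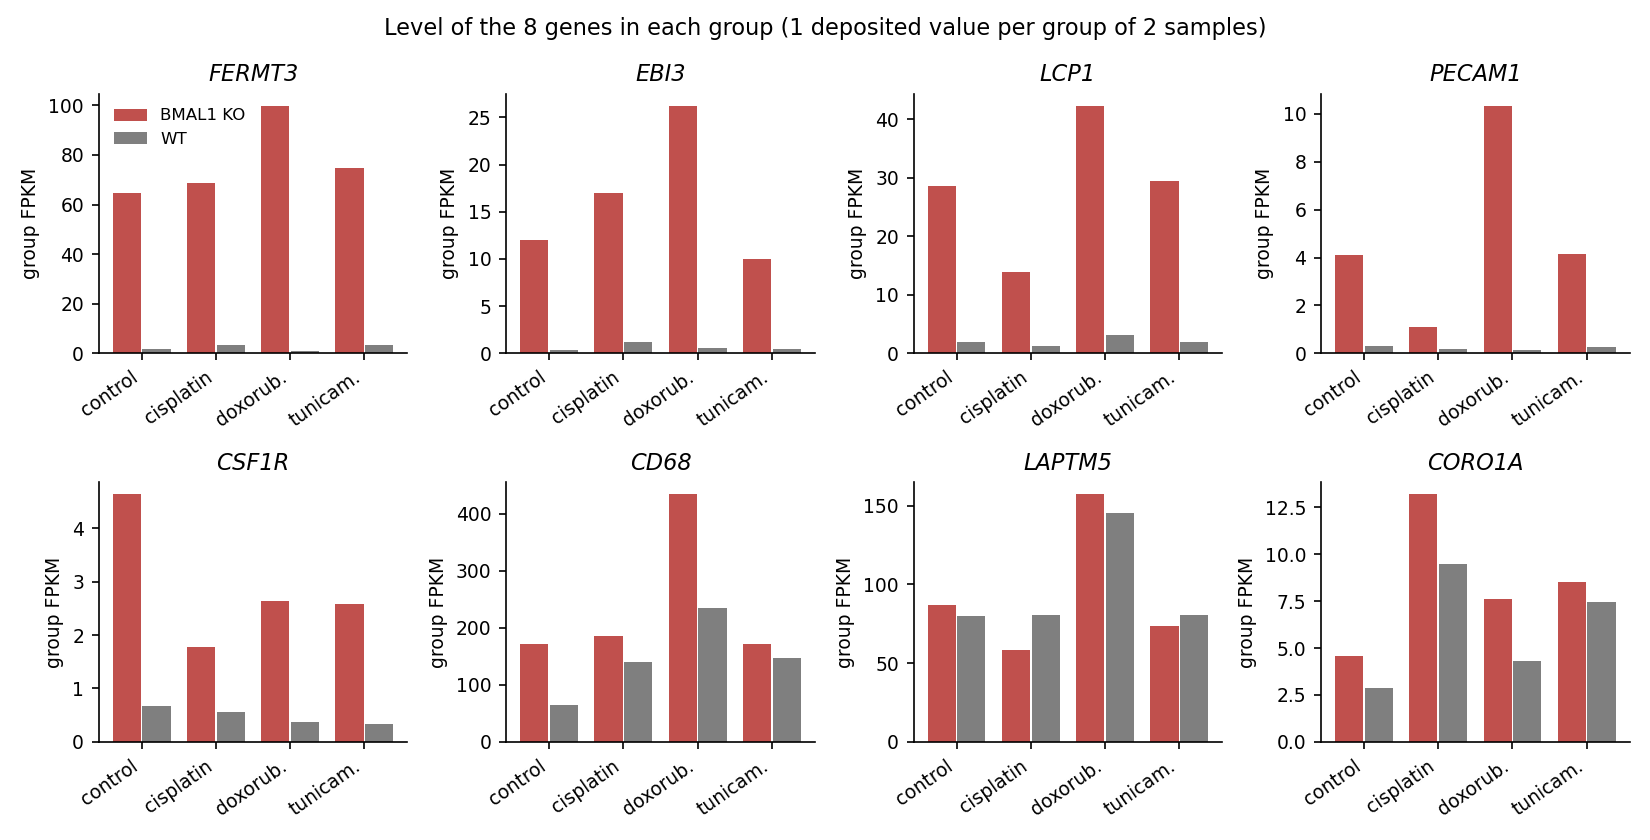
Group FPKM of each of the 8 genes (1 panel per gene, vertical axis on its own scale) in KO and WT cells under control, cisplatin, doxorubicin and tunicamycin. Each mark is the 1 deposited value of a group of 2 samples, so no error can be drawn; *FERMT3* sat between 64.5 and 99.8 FPKM in KO and between 1.0 and 3.51 FPKM in WT cells, while the KO and WT values of *LAPTM5* overlapped.

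*FERMT3* encodes kindlin-3, the kindlin of blood cells, whose inherited loss leaves platelet and leukocyte integrins unable to bind firmly. Its gene lies at chr11:64206678-64223886 on the plus strand (GRCh38, as are all gene positions here). It was at 64.5 FPKM in control cells, 68.9 with cisplatin, 99.8 with doxorubicin and 74.6 with tunicamycin in KO cells, and at 1.91, 3.39, 1.0 and 3.51 FPKM in WT cells. No WT group came near a KO group, and the folds of KO over WT were 33.8, 20.3, 99.8 and 21.3. The widest fold, under doxorubicin, joined the highest KO value to the lowest WT value, so it rests on a small denominator. With a pseudocount of 1 the log2 ratio under doxorubicin was 5.66, against 6.64 as deposited. In control it was 4.49, against 5.08 as deposited. The KO values spread over 1.55-fold among treatments and the WT values over 3.51-fold. Since these are whole-culture RNA values, more cells that express a gene and more RNA per cell cannot be told apart, here or for the genes that follow.

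The deposited locus of *FERMT3* also takes in *TRPT1*, *NUDT22*, *DNAJC4* and RP11-783K16.14, and whether counting used the strand is not known here. The first 3 differed far less between the genotypes than *FERMT3* did. *TRPT1*, which overlaps the end of *FERMT3* on the opposite strand, had 13.5 FPKM in KO control and 14.9 FPKM in WT control cells. *NUDT22* had 26.5 FPKM in KO and 25.2 FPKM in WT control cells, and *DNAJC4* had 5.70 FPKM in KO and 5.71 FPKM in WT control cells. Under doxorubicin, where *FERMT3* stood widest apart, the log2 ratios of KO over WT in the authors' deposited table were 0.22 for *TRPT1*, 0.59 for *NUDT22* and 0.45 for *DNAJC4*. RP11-783K16.14 was low and, like *FERMT3*, mostly higher in KO, at 1.03, 0.462, 0 and 0.877 FPKM in KO cells and 0, 0, 0 and 0.258 FPKM in WT cells in the order control, cisplatin, doxorubicin and tunicamycin.

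The other kindlins differed from *FERMT3* and from each other. *FERMT1*, kindlin-1 of epithelial cells, was lower in KO in all 4 comparisons, at 1.68, 1.40, 1.34 and 1.15 FPKM in KO cells against 6.28, 5.40, 5.91 and 5.88 FPKM in WT cells (authors' deposited table, largest q = 0.000213). *FERMT2*, the widely expressed kindlin-2, was modestly higher in all 4, at 44.9, 33.0, 25.1 and 34.2 FPKM in KO cells against 28.98, 24.9, 16.1 and 21.4 FPKM in WT cells (authors' deposited table, largest q = 0.000213). Thus *FERMT3* was the kindlin with the highest FPKM in each KO group, and *FERMT2* was the highest in each WT group. Of the other genes of integrin activation, *PXN*, the adapter paxillin, and *APBB1IP*, the RIAM adapter that brings talin to integrins, were called lower in all 4 tables. In that list of 15 genes, 3 of 11 tested were called higher and 4 lower in control, 1 of 12 higher and 5 lower in cisplatin, 3 of 11 higher and 5 lower in doxorubicin, and 3 of 11 in each direction in tunicamycin. Of all genes tested, 22.7% were called higher and 21.1% lower in control, and 25.4% and 24.2% in cisplatin. The shares were 24.4% and 20.7% in doxorubicin and 27.2% and 22.1% in tunicamycin. They stand beside the counts of every list below, and nothing is read from the counts of a single list.

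Kindlin-3 acts on β integrins, and the 2 such chains of blood cells described here differed from each other. *ITGB2*, the β2 chain of leukocytes, was at 21.02, 16.9, 35.6 and 17.5 FPKM in KO cells and at 14.3, 20.997, 33.8 and 15.4 FPKM in WT cells. The authors' deposited tables called it higher in control (q = 0.0113) and lower in cisplatin (q = 0.0428), and did not call it under doxorubicin or tunicamycin (q = 0.604 and 0.228). Its partner chain *ITGAM* never passed 0.205 FPKM. *ITGB3*, the β3 chain that pairs with αIIb in platelets and with αV elsewhere, was called higher in all 4 tables, at 3.90, 1.87, 3.44 and 3.27 FPKM in KO cells against 0.935, 0.527, 0.870 and 0.578 FPKM in WT cells. In the list of 10 blood cell integrins, 3, 4, 3 and 3 were tested over the 4 treatments, 2, 1, 2 and 2 were called higher and 0, 1, 0 and 0 lower. Among integrins of adherent cells, *ITGA6*, a laminin receptor chain, and *ITGA2*, a collagen receptor chain, were called lower in all 4 tables. *ITGA6* stood at 72.0, 17.3, 73.5 and 70.3 FPKM in KO cells and at 137, 47.8, 189 and 120 FPKM in WT cells. Of the 16 integrins of adherent cells, 9, 9, 10 and 9 were tested over the 4 treatments, 4, 0, 4 and 4 were called higher and 2, 5, 3 and 4 lower.

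*LCP1* encodes L-plastin, the actin bundler of leukocytes, and lies at chr13:46125920-46211871 on the minus strand. In KO cells it was at 28.6 FPKM in control cells, 14.0 with cisplatin, 42.3 with doxorubicin and 29.5 with tunicamycin, and in WT cells at 1.94, 1.34, 3.22 and 1.93 FPKM. The 2 genotypes did not overlap, cisplatin gave the lowest and doxorubicin the highest value in both, and the folds kept to a narrow range of 10.4 to 15.3. Its paralogs did not share this. *PLS1*, the plastin of gut and ear epithelia, was at 16.7, 10.6, 22.3 and 13.4 FPKM in KO cells and 12.4, 8.34, 17.97 and 10.01 FPKM in WT cells, called higher in control, doxorubicin and tunicamycin. *PLS3*, the plastin of most solid tissues, was called lower in KO control cells, at 70.6 FPKM against 178 FPKM in WT control cells, with no call under the drugs.

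Genes around *LCP1* were also higher in KO cells. Other tested genes within 1 Mb were counted where FPKM was above 0 in both genotypes, 8 or 9 in a table. Their median log2 ratio was 0.84 in control cells, 1.05 with cisplatin, 1.02 with doxorubicin and 1.08 with tunicamycin. None of these neighbours reached the ratio of *LCP1* itself, and after their median was subtracted its log2 ratio in control was 3.04. For the other 7 genes the neighbours' median lay between -0.27 and 0.44 in every table. No neighbour of *FERMT3* or *PECAM1* above 0 FPKM in both genotypes had a higher ratio than the gene itself in any table. Among neighbours counted in that way, 2 had a higher ratio than *EBI3* in control and 1 a higher ratio than *CSF1R* under cisplatin. In the other treatments no such neighbour exceeded *EBI3* or *CSF1R*. RP11-783K16.14, beside *FERMT3*, was left out in control, where it was at 1.03 FPKM in KO and 0 in WT cells.

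**Figure D2:**
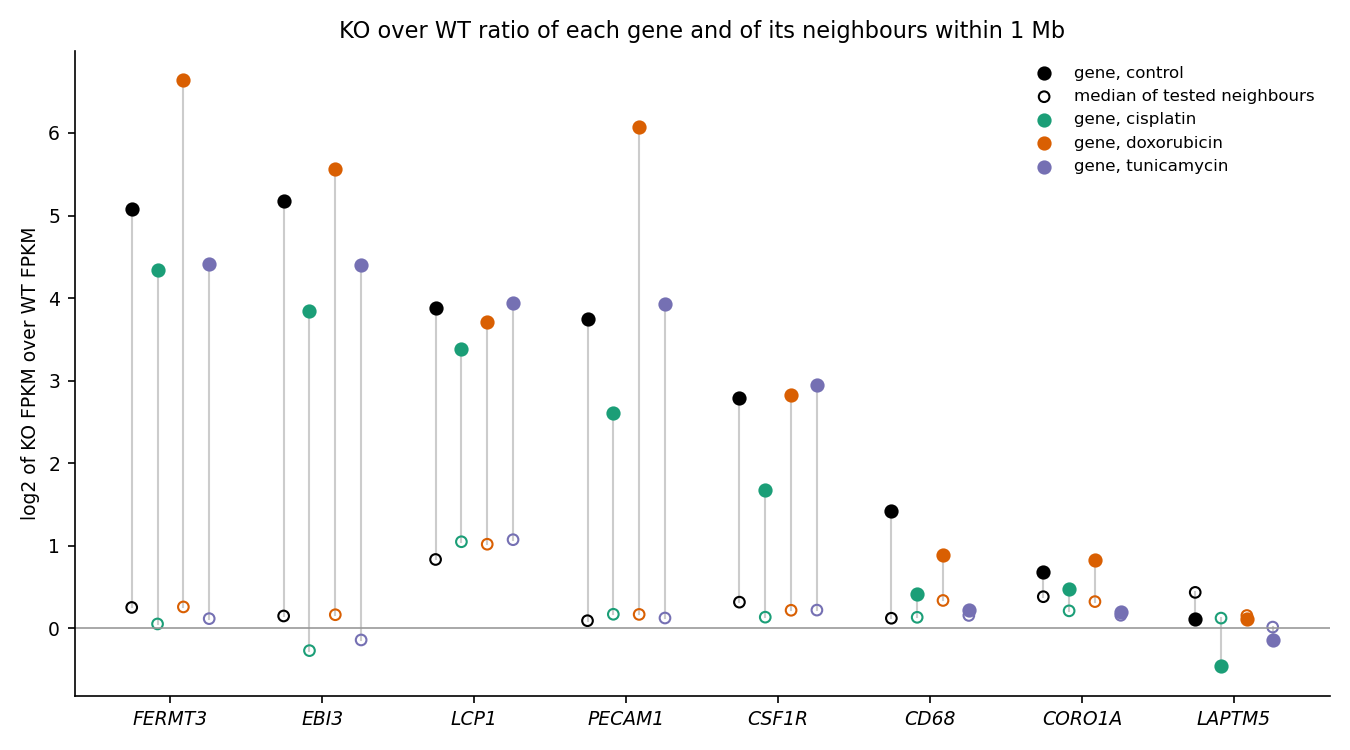
The log2 ratio of KO over WT FPKM (vertical axis) for each of the 8 genes (filled points) and the median ratio of other tested genes within 1 Mb (open circles), joined by a line for each treatment. The first 5 genes stand well above the median of their neighbours in all 4 treatments. The open circles of *LCP1* lie near 1, and the points of *LAPTM5* lie at or below the median of its neighbours.

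*CORO1A* encodes coronin-1A, an actin regulator needed for T cell survival, and lies at chr16:30182827-30189076 on the plus strand. It was at 4.57 FPKM in control cells, 13.2 with cisplatin, 7.62 with doxorubicin and 8.50 with tunicamycin in KO cells, and at 2.85, 9.46, 4.31 and 7.43 FPKM in WT cells. Within each treatment KO was higher, by 1.61-, 1.39-, 1.77- and 1.14-fold, but the spread among treatments was wider than that between genotypes, and the genotypes overlapped. Each drug gave a higher value than control in both genotypes, and cisplatin the highest. *CORO1B*, its widely expressed relative, was called higher in KO in control, doxorubicin and tunicamycin and lower in cisplatin, and *CORO1C* and *CORO2A* were called lower in all 4. Their levels in control were 75.8 FPKM in KO and 61.8 FPKM in WT for *CORO1B*, 126 FPKM in KO and 184 FPKM in WT for *CORO1C*, and 3.75 FPKM in KO and 7.10 FPKM in WT for *CORO2A*. Of 8 plastins and coronins, 7, 8, 7 and 7 were tested in control, cisplatin, doxorubicin and tunicamycin, with 4, 0, 3 and 3 called higher and 3, 4, 2 and 3 lower.

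A few other genes of the leukocyte actin skeleton stood far apart. *GMFG*, a blood-cell regulator of Arp2/3 branches, was called higher in all 4 tables, at 10.7, 8.37, 19.8 and 8.99 FPKM in KO cells and 0.701, 0.920, 1.94 and 0.639 FPKM in WT cells. *HCLS1*, the cortactin relative of blood cells, went the other way, at 0.215, 0.0794, 0.431 and 0.644 FPKM in KO cells and 1.78, 1.92, 2.81 and 2.33 FPKM in WT cells, and was called lower in all 4. *ARHGDIB*, best known from blood cells, and *CAPG*, an actin capping protein of macrophages, were also called lower in all 4, at 120 and 317 FPKM in KO control cells and 258 and 442 FPKM in WT control cells. In the list named for leukocyte actin, 9, 10, 10 and 9 of 12 genes were tested in control, cisplatin, doxorubicin and tunicamycin. Of these, 2, 1, 4 and 4 were called higher and 3, 5, 3 and 3 lower, beside the shares of all tested genes given above.

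**Figure D3:**
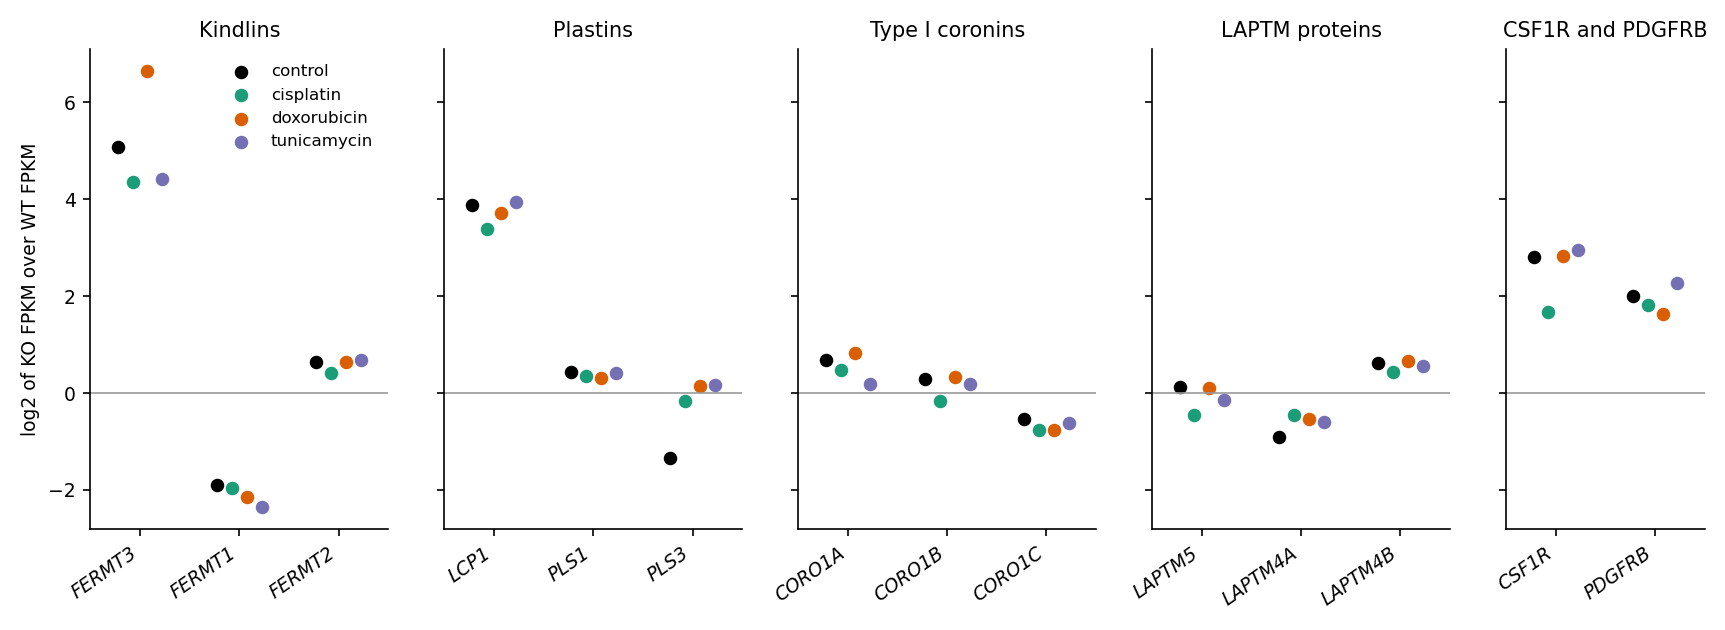
The log2 ratio of KO over WT FPKM (vertical axis, the same in all panels) for *FERMT3*, *LCP1*, *CORO1A*, *LAPTM5* and *CSF1R* beside relatives of each, with 1 point per treatment. *FERMT3* and *LCP1* lie above 3 in all treatments while their relatives lie between -2.36 and 0.68.

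*PECAM1* encodes CD31, through which endothelial cells, platelets and leukocytes bind one another. It lies at chr17:64319415-64413776 on the minus strand. Its level was low, at 4.12 FPKM in control cells, 1.09 with cisplatin, 10.3 with doxorubicin and 4.14 with tunicamycin in KO cells, and 0.305, 0.178, 0.154 and 0.272 FPKM in WT cells. Each KO group exceeded each WT group, with folds of 13.5, 6.12, 67.2 and 15.2. Every WT value lay under 1 FPKM, so these folds rest on a small denominator. Among related adhesion molecules, *F11R*, a tight junction protein, and *ICAM2*, an integrin ligand of endothelium, were called higher in all 4, at 13.5 and 10.9 FPKM in KO control and 7.62 and 6.51 FPKM in WT control cells. *ALCAM*, a homotypic adhesion molecule, and *CD47*, the signal that restrains phagocytes, were called lower in all 4, at 71.9 and 30.4 FPKM in KO control and 109 and 57.1 FPKM in WT control cells. Of 17 such adhesion genes, 9, 10, 10 and 10 were tested over the treatments, 2, 2, 4 and 2 were called higher and 4, 5, 3 and 4 lower.

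*CSF1R* encodes the receptor for CSF1 and IL-34 that macrophages need to survive. It lies at chr5:150053291-150113372 on the minus strand. It was at 4.63 FPKM in control cells, 1.77 with cisplatin, 2.64 with doxorubicin and 2.58 with tunicamycin in KO cells, and at 0.667, 0.556, 0.372 and 0.334 FPKM in WT cells. The genotypes did not overlap, and KO was 6.94-, 3.19-, 7.10- and 7.74-fold higher. Every WT value lay under 1 FPKM, so these folds too rest on a small denominator. In both genotypes the untreated group had the highest value. *PDGFRB*, a related receptor kinase, lies upstream of *CSF1R* on the same strand, its 3′ end 464 bases from the *CSF1R* start, and was called higher in all 4 tables. Its levels were 6.83, 5.87, 2.31 and 4.17 FPKM in KO cells and 1.69, 1.66, 0.750 and 0.868 FPKM in WT cells. Under cisplatin the log2 ratio of KO over WT was 1.82 for *PDGFRB* and 1.67 for *CSF1R*. In the other treatments *CSF1R* had the larger ratio.

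The ligand *CSF1* was at 27.4 FPKM in KO control and 16.0 FPKM in WT control cells and was called higher there and in tunicamycin, at 15.3 FPKM in KO and 12.6 FPKM in WT cells. Under cisplatin and doxorubicin it was at 8.73 and 4.49 FPKM in KO and 11.9 and 6.10 FPKM in WT cells, with no call. The other ligand, *IL34*, stayed under 0.1 FPKM in all groups. *CSF3*, the granulocyte growth factor, was called higher in all 4, at 15.7, 12.2, 2.30 and 28.0 FPKM in KO cells and 0.180, 0.0962, 0.214 and 0.220 FPKM in WT cells. *CSF2RA*, a chain of the GM-CSF receptor, was called lower in all 4, at 5.58 FPKM in KO control and 14.2 FPKM in WT control cells. The list of CSF ligands, receptors and related kinases had 5, 6, 6 and 6 of 12 genes tested, 3, 2, 2 and 5 called higher and 1 called lower in each table.

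*EBI3* encodes a soluble β subunit that pairs with p28, the product of *IL27*, to form IL-27, and with the product of *IL12A* to form IL-35. It lies at chr19:4229498-4237531 on the plus strand. It was at 12.0 FPKM in control cells, 17.0 with cisplatin, 26.2 with doxorubicin and 9.95 with tunicamycin in KO cells, and at 0.333, 1.19, 0.553 and 0.473 FPKM in WT cells. The lowest KO value was far above the highest WT value, and the folds were 36.1, 14.3, 47.4 and 21.04. Apart from cisplatin, the WT values lay under 1 FPKM, so these folds rest on a small denominator. With a pseudocount of 1 the log2 ratio in control was 3.29, against 5.17 as deposited. Of the partners of *EBI3*, *IL27* was listed at 0 in all 8 groups. *IL12A* was at 1.81, 4.16, 4.14 and 1.49 FPKM in KO cells and 0.945, 3.05, 2.39 and 0.826 FPKM in WT cells, and the authors' deposited tables called it higher under doxorubicin alone (q = 0.0490). Of 16 genes of the IL-12 family and its signalling, 9, 9, 8 and 10 were tested, 2, 1, 4 and 3 were called higher and 1, 2, 2 and 0 lower.

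*CD68* encodes a lysosomal glycoprotein used as a macrophage marker and was the highest of the 8 genes in every KO group. It lies at chr17:7579467-7582113 on the plus strand. It was at 171 FPKM in control cells, 186 with cisplatin, 434 with doxorubicin and 173 with tunicamycin in KO cells, and at 64.1, 140, 235 and 147 FPKM in WT cells. KO exceeded WT in each treatment, by 2.68-, 1.33-, 1.85- and 1.17-fold, but WT doxorubicin exceeded 3 of the KO groups. The deposited locus of *CD68* is shared with 13 other genes, among them *EIF4A1*, at 1447 FPKM in KO control and 1267 FPKM in WT control cells, so its value is uncertain. *MPDU1* and *SENP3* in that locus were also higher in KO control cells, at 148 and 71.0 FPKM, than in WT control cells, at 107 and 49.96 FPKM. Others there went the other way. *SAT2*, *FXR2* and AC113189.5 were at 27.1, 47.7 and 3.97 FPKM in KO control and 41.1, 50.2 and 5.93 FPKM in WT control cells.

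*LAPTM5* encodes a lysosomal protein of lymphoid and myeloid cells that steers receptors to degradation. It lies at chr1:30732469-30757820 on the minus strand. It was at 86.8 FPKM in control cells, 58.6 with cisplatin, 157 with doxorubicin and 73.6 with tunicamycin in KO cells, and at 80.2, 80.5, 145 and 80.8 FPKM in WT cells. Its log2 ratios of 0.11, -0.46, 0.11 and -0.13 in the authors' deposited tables changed sign between treatments, although each was called there. It was thus abundant in both genotypes. Its relative *LAPTM4B* was called higher in all 4 tables and *LAPTM4A* lower in all 4, at 139 and 58.5 FPKM in KO control and 90.5 and 110 FPKM in WT control cells. Of other proteins of the lysosomal membrane, *LAMP1*, its major glycoprotein, was called higher in all 4, at 195 FPKM in KO control and 90.7 FPKM in WT control cells. *NPC1*, the cholesterol exporter, was called lower in all 4, at 33.0 FPKM in KO control and 64.0 FPKM in WT control cells. Of 10 genes of late endosome and lysosome membranes, 9, 9, 9 and 10 were tested, 2, 2, 3 and 2 were called higher and 4, 5, 3 and 7 lower.

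Of 23 transcription factors of myeloid and other blood cells, 11, 12, 8 and 10 were tested, 3, 3, 3 and 4 were called higher and 4, 5, 1 and 4 lower. *SPI1*, which encodes PU.1, was listed at 0 in 5 of 8 groups and reached at most 0.202 FPKM, in KO doxorubicin cells. *CEBPA* and *CEBPB*, C/EBP factors of myeloid and many other cells, were called higher in all 4 tables. *CEBPA* was at 9.43, 9.50, 1.23 and 3.25 FPKM in KO cells and 1.75, 6.93, 0.316 and 1.44 FPKM in WT cells. *CEBPB* was at 82.4, 112, 8.71 and 187 FPKM in KO cells and 49.7, 78.0, 4.07 and 170 FPKM in WT cells. Under doxorubicin both had their lowest levels, in KO and in WT. *LMO2*, a factor of early blood cells, was called lower in all 4, at 1.20 FPKM in KO control and 5.50 FPKM in WT control cells.

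Over all 10 lists of related genes, which held 139 genes and none of the 8, both directions were called. In control cells 27 of the 82 tested were called higher and 26 lower, which is 32.9% and 31.7%, beside 22.7% and 21.1% over the whole table. In cisplatin 13 of 89 were called higher and 38 lower, or 14.6% and 42.7%, against 25.4% and 24.2%. In doxorubicin 32 of 82 were called higher and 23 lower, beside 24.4% and 20.7% over the whole table, and in tunicamycin 32 of 85 higher and 29 lower, against 27.2% and 22.1%. The lists' median log2 ratios were 0.13, -0.23, 0.10 and 0.05, beside 0.01, 0.02, 0.04 and 0.03 over the whole tables.

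Markers of blood cells were near absent in both genotypes. Of 21 leukocyte markers, 19 never reached 1 FPKM and 5 were at 0 in all 8 groups (*MPO*, *CD163*, *FCGR3A*, *TYROBP* and *MS4A1*). *PTPRC*, which encodes CD45 of all nucleated blood cells, was at 0 in every KO group and reached 0.0135 FPKM in WT cells. The summed level of the list was 18.3 to 38.0 FPKM in KO groups and 15.8 to 35.8 FPKM in WT groups, and most of it was *ITGB2*. Without *ITGB2* the other 20 summed to 0.828 to 3.39 FPKM in KO and 1.22 to 2.41 FPKM in WT groups. All 8 erythroid and platelet markers stayed under 1 FPKM. Of 10 endothelial markers, *ESAM*, *ROBO4*, *EGFL7* and *TIE1* reached 1 FPKM and the defining *CDH5* peaked at 0.246 FPKM, with sums of 176 to 244 FPKM in KO and 194 to 327 FPKM in WT groups.

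**Figure D4:**
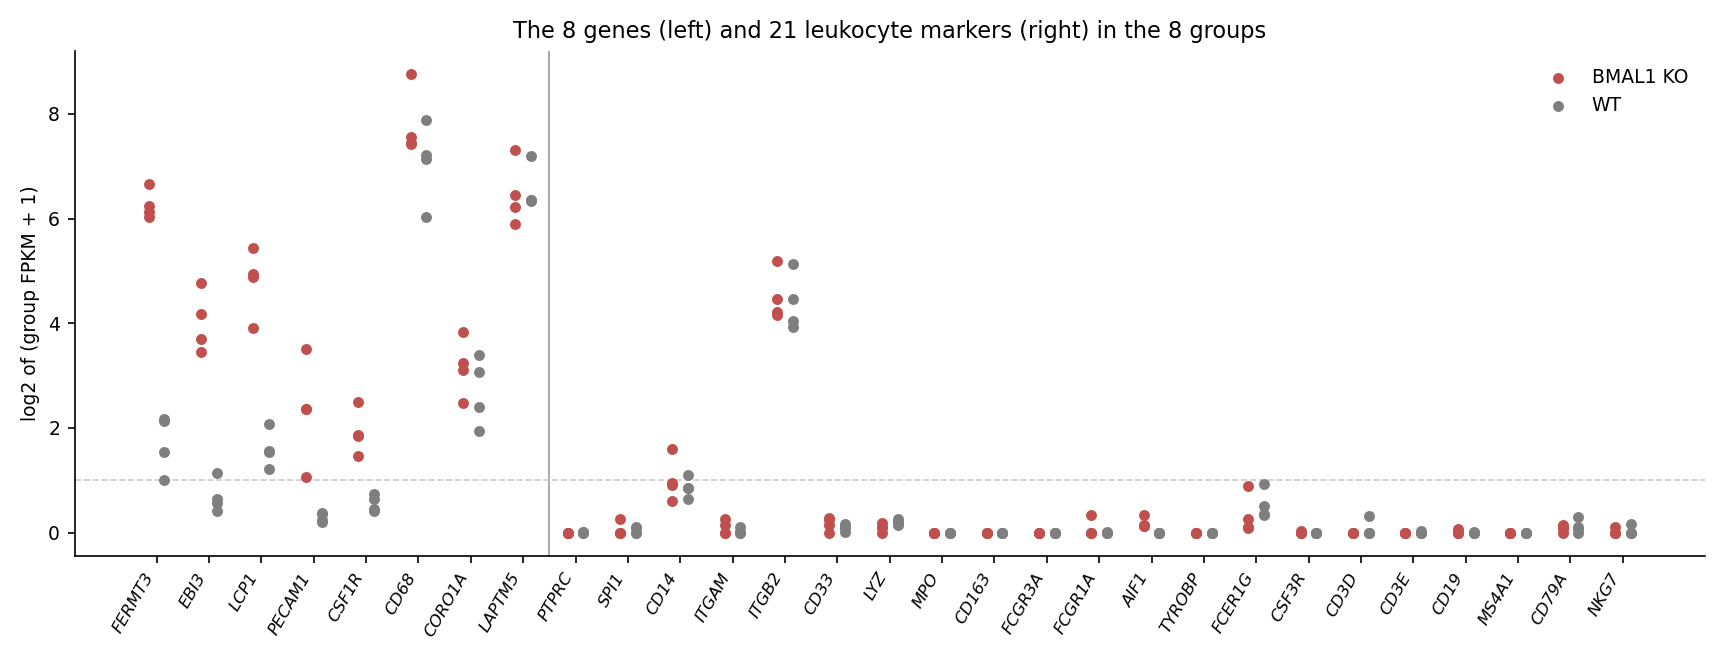
Level of the 8 genes (left of the line) and of 21 leukocyte markers (right) as log2 of group FPKM plus 1, with 4 KO and 4 WT groups per gene; the dashed line is at 1 FPKM. *FERMT3*, *EBI3*, *LCP1*, *PECAM1* and *CSF1R* separate by genotype, while the markers other than *ITGB2* and *CD14* lie under the dashed line in both.

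The label of the line was checked too, since an extraction note among the labels speaks of fibroblasts. *VIM*, *CD44*, *EGFR*, *AXL* and *CAV1* were expressed and *ESR1*, *PGR* and *CDH1* stayed under 1 FPKM, as is known of MDA-MB-231. Fibroblasts can share this pattern, so these markers do not tell the line from fibroblasts. Of 7 fibroblast markers only *COL1A1* reached 1 FPKM and *DCN* was at 0 in all groups. Depth is unknown without counts. As a rough guide, the level below which 5% of nonzero values fell in WT control cells, divided by the same in a group, ran from 1.35 to 2.22 in KO groups and from 1 to 2.74 in WT groups.

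Drug responses were set out within each genotype as the log2 of drug over control FPKM with 1 added to both, across tables that were normalized separately, with no test. All 3 responses of a genotype share its control group. Under doxorubicin the median of the 8 genes was 0.74 in KO and 0.34 in WT cells, while the median of all expressed genes was -0.74 in KO and -0.72 in WT cells. All 8 genes lay above that median in both genotypes, but nothing is read from this. The 1 FPKM added holds genes of low level, such as *PECAM1* and *EBI3* in WT cells, near 0. With 0.1 FPKM added instead, *FERMT3* gave -0.87 in WT and *CSF1R* -0.79 in KO cells. The median of all expressed genes was not taken on that scale. With 1 FPKM added, *CD68* had the largest response to doxorubicin, 1.34 in KO and 1.86 in WT cells. *LAPTM5* responded alike, with 0.85 in each. *CSF1R* was lower under doxorubicin than in control in both, at -0.63 in KO and -0.28 in WT cells.

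*FERMT3* and *PECAM1* gave opposite signs under doxorubicin in the 2 genotypes. *FERMT3* gave 0.62 in KO and -0.54 in WT cells, and *PECAM1* 1.15 in KO and -0.18 in WT cells, the WT values of *PECAM1* being under 1 FPKM. Under cisplatin the median of the 8 was -0.23 in KO and 0.30 in WT cells, beside 0.13 and 0.11 over all expressed genes. Of the 8 genes, 2 in KO and 4 in WT cells lay above those medians. *CORO1A* was highest under cisplatin, with 1.35 in KO and 1.44 in WT cells. *LCP1*, *CSF1R* and *PECAM1* were lower under cisplatin in KO cells, at -0.98, -1.02 and -1.29. Under tunicamycin the medians were 0.01 in KO and 0.08 in WT cells, beside -0.07 in each genotype over all expressed genes. Of the 8 genes, 5 in KO and 7 in WT cells lay above the latter, and nothing is read from these counts. *CD68* had 0.01 in KO and 1.19 in WT cells under tunicamycin.

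**Figure D5:**
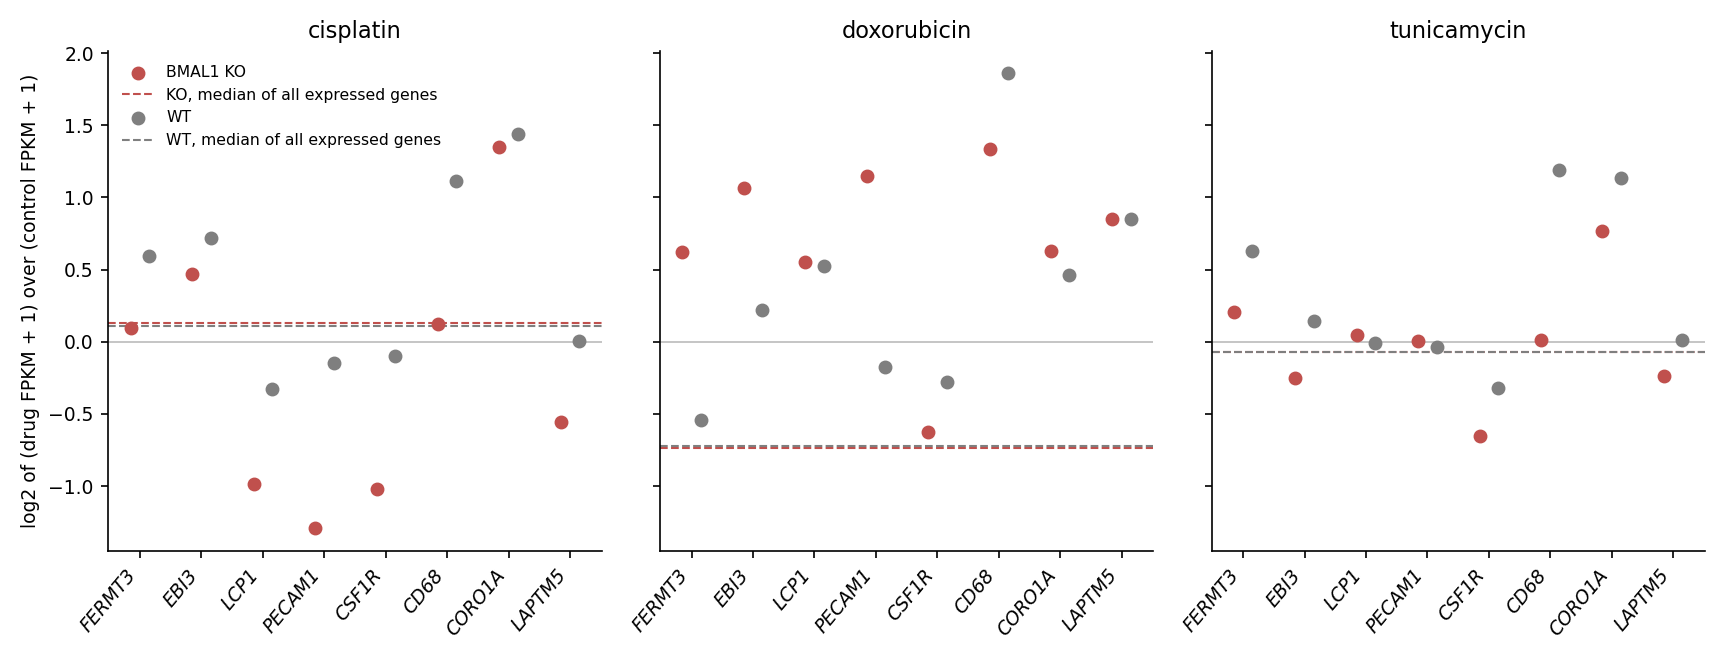
Response of each of the 8 genes to each drug, as log2 of drug FPKM plus 1 over control FPKM plus 1 (vertical axis), in KO and in WT cells, with dashed lines at the median of all expressed genes of each genotype. In the doxorubicin panel all points lie above the dashed lines at -0.74 for KO and -0.72 for WT.

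The difference between a drug and control in the log2 ratio of KO over WT was taken from the deposited ratios, with no pseudocount, and was not tested. Under cisplatin it was below 0 for all 8 genes, from -0.20 for *CORO1A* to -1.33 for *EBI3*. The value for *EBI3* rested on its WT control level of 0.333 FPKM, and with a pseudocount of 1 it was -0.25, while *PECAM1* had -1.14 on both scales. Under doxorubicin *PECAM1* stood at 2.32 and *FERMT3* at 1.56, and the other genes lay between -0.53 and 0.39. With a pseudocount of 1 these were 1.33 for *PECAM1* and 1.16 for *FERMT3*. Under tunicamycin the difference ran from -1.19 for *CD68* to 0.17 for *PECAM1*, and the value of 0.16 for *CSF1R* turned to -0.33 with a pseudocount of 1. As a ratio, *CD68* thus stood wider apart in control than under any drug.

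Other genes came near the pattern of the 8 over the 4 log2 ratios taken with 1 FPKM added. Among 14218 genes that reached 1 FPKM, those nearest to the median of the 8 included *ALDH3A1*, *CPLX1*, *SPOCD1*, *FCGRT*, *TGFBI*, *KLHL4*, *S100A4*, *COL4A1* and *CFP*, at Euclidean distances of 0.521 to 0.639. The nearest to *LCP1* was *FKBP10*, a collagen chaperone, at a distance of 0.338, with 44.1, 48.1, 84.7 and 49.1 FPKM in KO cells and 4.15, 5.39, 7.40 and 4.01 FPKM in WT cells. The nearest to *FERMT3* was *SPANXA2*, a gene normally of testis, at 1.09, with 24.6, 41.3, 62.8 and 22.9 FPKM in KO cells and 0.662, 0.792, 1.12 and 0.397 FPKM in WT cells. *SPANXA2* belongs to a family of near-identical copies, so its counts are uncertain. The list of the 10 nearest genes depended on the pseudocount and on the measure of likeness.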

How the data were processed

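RNA-seq of KO and WT MDA-MB-231 cells under 4 treatments gave 16 samples, 2 per group, grouped by the genotype and treatment in the labels. The tools named, per the submitters' processing notes, were STAR 2.5.3, Cufflinks, Cuffdiff, Trimmomatic 0.35 and FastQC 0.11.5, with build hg38. Their order, the gene models and whether counting was stranded are not stated there. Per the labels' protocols, libraries were made from mRNA and sequenced in pairs.

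The authors deposited 4 tables, 1 per treatment, with 1 FPKM value per group, normalized separately. Columns were assigned to KO and WT from the order of groups in the table names and the group codes inside. Log2 ratios, as deposited by the authors, are KO over WT with no pseudocount, and recomputation matched them within 4.64e-05. The authors' deposited score is Cuffdiff's test statistic, which was not used further. The p-values and q-values deposited by the authors come from Cuffdiff, adjusted by Benjamini-Hochberg within a table, recomputed within 5.25e-07. "Called" means tested by the authors with q at most 0.05. Replicate values were not used here, so no SD, replicate test or left-out sample is given, and the labels do not say whether the samples of a group were separate cultures.

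The 8 genes, the lists of related genes and markers, and the tests were chosen with earlier results of these data known. All 8 genes were named, and from each list up to 4 genes called in 1 direction in all 4 tables, with the largest median absolute log2 ratio, plus relatives and partners of the 8 chosen by name; some genes that this rule selects are not reported here. Drug responses used a pseudocount of 1, which understates changes of low genes. Neighbours were tested genes with midpoints within 1 Mb. Positions are from GENCODE 29, and 96.9% of 56988 matched genes lay inside the deposited locus. Promoters are RefSeq GRCh38.p14. Python 3.11.15, pandas 2.3.3, NumPy 2.4.6 and Matplotlib 3.10.9 were used, and the scripts were tested on simulated data. Alternatives covered the pseudocount, scaling, neighbours, filters and the q threshold.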

Additional observations from a re-analysis of the deposited data

Results flagged for a closer look

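Among the 8 genes and the related genes named by rule, 3 had a call in control and a call in the opposite direction under a drug in the authors' deposited tables. Other genes of the lists, which the rule did not name, did so too. None of these differences was tested. *LAPTM5* was called higher in KO control cells and lower under cisplatin, a difference of -0.57 on the log2 scale, and lower under tunicamycin, a difference of -0.25. *ITGB2* was called higher in KO control cells and lower under cisplatin, a difference of -0.87. *CORO1B* was called higher in KO control cells and lower under cisplatin, a difference of -0.46.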

How the results depend on the processing

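The direction of the median log2 ratio of the 8 genes was KO above WT under every alternative run, but its size was not stable. With a pseudocount of 1 it was 1.86, 0.83, 2.35 and 1.72 in control, cisplatin, doxorubicin and tunicamycin. Over the genes of at least 1 FPKM in both groups it was 1.42 in control, 0.86 in doxorubicin and 0.23 in tunicamycin. With the neighbours' median subtracted it was 2.65 in doxorubicin and 2.80 in tunicamycin, and that step turned the ratio of *LAPTM5* to -0.32 in control and -0.045 in doxorubicin. With the median of expressed genes subtracted, the response of the 8 genes to doxorubicin was 1.48 in KO and 1.06 in WT cells. Of the 10 genes of like pattern, 1 was shared with a pseudocount of 0.1 and 0 with Pearson correlation over the 8 groups. The cause was not tested. In the other 49 settings of the main results the value moved by less than 1.5 times. No paired analysis was possible because the tables hold 1 value per group and none per sample, and leaving out a sample was not run for the same reason. Depth is unknown, so values under 1 FPKM, as for *PECAM1*, *CSF1R* and *EBI3* in WT cells, carry an error that cannot be given.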

Other observations

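The levels of *S100A4* and *CFP*, named above among the genes near the pattern of the 8, are given here. Chosen by the distance of their 4 ratios and given in the order control, cisplatin, doxorubicin and tunicamycin, *S100A4*, a calcium-binding protein of motile cells, was at 52.8, 56.1, 85.9 and 42.8 FPKM in KO cells and 13.9, 22.8, 20.3 and 9.94 FPKM in WT cells. *CFP*, which encodes properdin, a complement protein of myeloid cells, was at 10.5, 7.18, 19.9 and 12.3 FPKM in KO cells and 2.82, 2.34, 4.14 and 2.79 FPKM in WT cells. In both genes each treatment had more FPKM in KO than in WT cells, and since likeness selected them this is no test.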
